A study of Homo sapiens with 9 samples.

Results

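The genes described here are the protein-coding genes of human chromosome 19 whose symbol begins with ZNF followed by a digit, taken from GENCODE release 29 on GRCh38. There were 249 of them among the 58096 gene identifiers in the counts, and 223 had enough reads to be tested. PolyA+ RNA was sequenced from ALL-SIL cells, a human T-cell acute lymphoblastic leukaemia line that expresses TLX1, a homeobox transcription factor and oncogene. Per the labels, cells were electroporated with TLX1 siRNA1, TLX1 siRNA2 or the NTC siRNA, in 3 libraries each that carry replicate numbers 1 to 3. All cells were of the same line, without further alleles or agents in the labels. The sources used here give neither the siRNA dose and sequence, nor the harvest time, nor what NTC stands for. Whether the replicates came from separate cultures is not in the labels, and p-values then measure only the spread between these libraries, which may be technical.

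Most ZNF genes encode proteins with a row of C2H2 zinc fingers, small folds in which cysteines and histidines hold a zinc ion and neighbouring residues read DNA bases. In many of them a KRAB domain before the fingers binds TRIM28, which brings the histone methyltransferase SETDB1 and heterochromatin proteins and silences the bound DNA. Known targets include retrotransposons and other zinc finger genes. The family grew by tandem duplication, and human chromosome 19 holds its largest clusters, so neighbours are often close relatives. In the coding sequences of GENCODE 29, the median member held 12 C2H2 finger motifs, with a range of 0 to 36. A short word of the KRAB box was found in 193 of the 248 members with a coding sequence.

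The libraries held 58305492 to 99524663 gene counts. TLX1 went against its label. It stood at 406, 457 and 387 CPM (gene counts relative to the library total in units of 1e6, scaled by TMM factors) in the libraries labelled siRNA1, at 198, 231 and 179 CPM in those labelled siRNA2 and at 184, 167 and 183 CPM in those labelled NTC. Directions below are therefore those between labels, not effects of a lower TLX1 level. The replicate 1 libraries also stood apart in single genes: TLX3 had 54, 41 and 33 counts in those labelled siRNA1, siRNA2 and NTC, against 0 in the other 6 libraries. All 10 T cell markers checked were detected, among them CD3D at 539 CPM, although PTCRA, the pre-T cell receptor alpha chain, stood at 0.420 CPM. None of the 4 epithelial markers passed the filter on low counts, and the 5 erythroid markers summed to at most 0.252 CPM and the 5 myeloid markers to at most 1.29 CPM in any library.

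Most of these genes were expressed. Of the 249 genes 212 had a mean of at least 1 CPM over the 9 libraries, 156 at least 10 CPM and 23 at least 50 CPM. The 10 most abundant held 19.1% of the summed level. Per kb of exon the median over all 249 was 3.18 CPM, with a lower quartile of 1.13 and an upper quartile of 5.59 CPM per kb. Among tested genes the median was 3.56 CPM per kb, against 2.55 for all genes tested, 4.59 for the 221 tested ZNF genes of other chromosomes and 5.53 for the 763 other tested protein-coding genes of chromosome 19. ZNF146, which encodes a protein made almost only of zinc fingers, was the most abundant per length. It averaged 206 ± 18.4 CPM over the 9 libraries (SD, n = 9), or 49.7 CPM per kb, with 10.8% of its exon bases under another gene's exons. ZNF121 followed at 22.4 CPM per kb, and ZNF317 at 20.1, ZNF253 at 19.8, ZNF302 at 17.8 and ZNF428 at 17.7 CPM per kb were close to one another. ZNF428 held 1 copy of the finger motif, and 27.6% of its exon bases lie under exons of SRRM5, so its unstranded counts are uncertain.

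**Figure D1:**
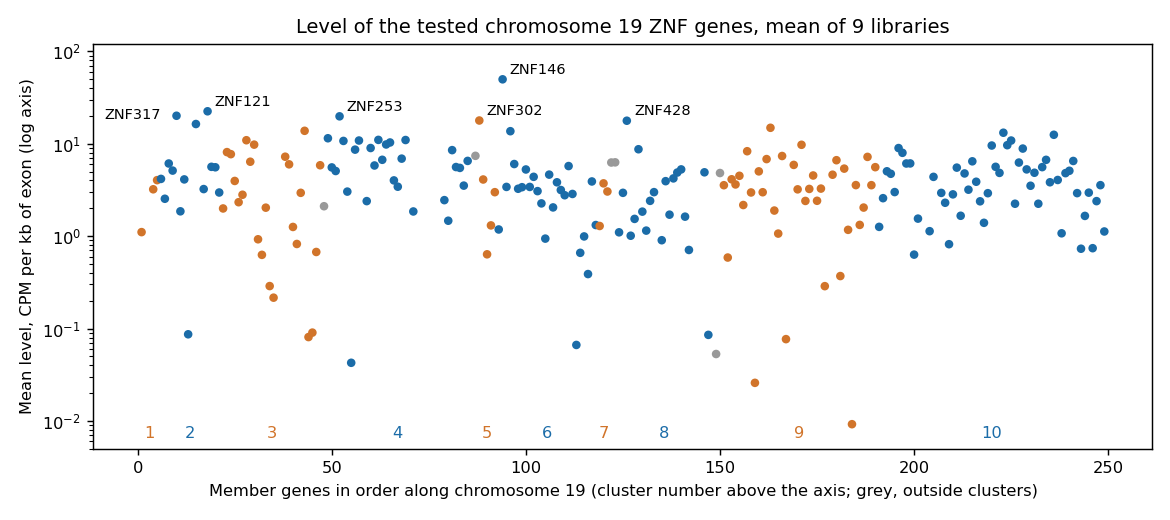
Mean level in CPM per kb of exon (log axis) of the 223 tested ZNF genes, in their order along chromosome 19. Colours alternate between the 10 numbered clusters, grey points lie outside clusters, and the 6 highest genes are named, with ZNF146 at 49.7 CPM per kb above all others.

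By position the genes fell into 10 clusters, where a gap of more than 1 Mb starts a new cluster and a cluster has at least 3 genes. The other 8 genes lay alone or in pairs. The largest was cluster 10 at the end of the long arm (55476332 to 58481230), with 59 genes of which 56 were tested and a median of 3.85 CPM per kb. Cluster 9 (51571298 to 53580269) held 40 genes with 38 tested and a median of 3.41 CPM per kb. Cluster 4 (19668796 to 24129961) held 37 genes with 28 tested. The tested genes of cluster 4 had the highest median of the 10 clusters, 6.17 CPM per kb, but 9 genes of the cluster were not tested. Of those 9, ZNF676, ZNF729, ZNF98, ZNF492, ZNF99, ZNF723 and ZNF728 are consecutive genes between ZNF257 and ZNF730, and the others are ZNF208 and ZNF626. Clusters 3 (11483427 to 12640098) and 6 (36182060 to 37817300) held 26 genes each, with 24 and 26 tested. Cluster 8 (43525497 to 45076588) held 24 genes with 20 tested and the lowest median, 2.13 CPM per kb. The most abundant gene per length was ZNF77 in cluster 1, ZNF121 in cluster 2, ZNF443 in cluster 3, ZNF253 in cluster 4, ZNF302 in cluster 5, ZNF146 in cluster 6, ZNF780B in cluster 7, ZNF428 in cluster 8, ZNF480 in cluster 9 and ZNF134 in cluster 10. In all, 26 genes were not tested, each with at most 18 counts in any library. Of these, ZNF676 and the readthrough genes ZNF625-ZNF20 and ZNF816-ZNF321P had 0 counts in all 9 libraries. Sequence shared with relatives also limits the counts. For 74 of the 249 genes, 65 of them tested, at least 10% of the exon bases lie under another gene's exons or at least 10% of the 50-base words occur in another gene.

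Members with a described function ranged from near 0 to among the most abundant. ZNF91, which represses SVA retrotransposons, averaged 8.52 CPM per kb, and ZNF93, which represses LINE retrotransposons, 10.7 CPM per kb. ZNF274, which binds other zinc finger genes and recruits SETDB1, averaged 5.10 CPM per kb. ZNF331, an imprinted gene, averaged 5.58 CPM per kb and ZNF675, an inhibitor of TRAF6 signalling, 5.59 CPM per kb. ZNF224, a repressor of the aldolase A gene, averaged 3.93 CPM per kb, with 40.5% of its exon bases under another gene's exons. ZNF175, a repressor of HIV transcription, averaged 3.56 CPM per kb. ZNF568, whose mouse counterpart represses a placental Igf2 transcript, averaged 0.940 CPM per kb. ZNF536, a regulator of neuronal differentiation, had 1 count in 3 libraries and 0 in the other 6. Of ZNF146 and the 8 tested genes just named none passed between siRNA labels, but 5 of them passed between replicate numbers, as given below.

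The libraries labelled siRNA1 were compared with those labelled NTC as a difference between labels, since TLX1 was higher under the siRNA1 label. Without the replicate number in the fit no ZNF gene of chromosome 19 passed, 0 of 223 in either direction. The test was edgeR's quasi-likelihood test with Benjamini-Hochberg adjustment over all 18554 genes tested. Among all genes 0.469% were called higher and 0.814% lower. At an unadjusted p under 0.05 the count was 6 of 223, or 2.69%, against 10.3% of all genes. The median log2 fold change over the 223 genes was −0.02, and that of all genes 0.01. In bulk RNA, fewer cells that express a gene and less RNA per cell cannot be told apart. DESeq2 called 2 genes, both lower, and its count over all genes is given in the closing section. Libraries that carry the same replicate number deviated from their group means together, which the fit without a block counts as spread. A fit with the replicate number as a block called 7 genes, 1 higher and 6 lower. It called 5.48% of all genes higher and 5.93% lower.

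ZNF101, the first gene of cluster 4 (19668796 to 19683509), had the most negative log2 fold change of this comparison among those with at least 1 CPM. It had 60.7, 71.3 and 59.2 CPM in replicates 1 to 3 labelled siRNA1, against 79.7, 93.7 and 79.6 CPM in those labelled NTC. The 2 groups did not overlap, and in each replicate number the library labelled siRNA1 was the lower one. Its log2 fold change was −0.40 (SE 0.10, edgeR adjusted p = 0.1002), a difference that did not pass. It passed with the replicate block (−0.40, SE 0.06, edgeR adjusted p = 0.000131), by DESeq2 (adjusted p = 0.0191) and with no filter on low counts (edgeR adjusted p = 0.0101). ZNF443 in cluster 3 (12429707 to 12441112) had 31.9, 34.0 and 30.0 CPM under the siRNA1 label, against 41.5, 43.5 and 36.4 CPM under the NTC label, again without overlap. It did not pass either (log2 fold change −0.34, SE 0.09, edgeR adjusted p = 0.130), but passed with the block (edgeR adjusted p = 0.00107) and by DESeq2 (adjusted p = 0.0352). ZNF443 shares 37.7% of its 50-base words with other genes, most of all with the nearby ZNF799, so reads of both are uncertain. ZNF799 itself averaged 12.8 ± 0.703 CPM under the siRNA1 label and 16.3 ± 1.41 CPM under the NTC label (SD, n = 3 each). Besides these 3, the block called ZNF121, ZNF257 and ZNF428 lower and ZNF792 higher in the libraries labelled siRNA1, with log2 fold changes of −0.23, −0.31, −0.26 and 0.25 in that fit. ZNF121 averaged 145 ± 14.6 CPM under the siRNA1 label and 169.7 ± 20.7 CPM under the NTC label (SD, n = 3 each). The largest positive log2 fold changes among genes with at least 1 CPM were 0.27 for ZNF610, 0.26 for ZNF283 and 0.26 for ZNF433, and none passed.

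**Figure D2:**
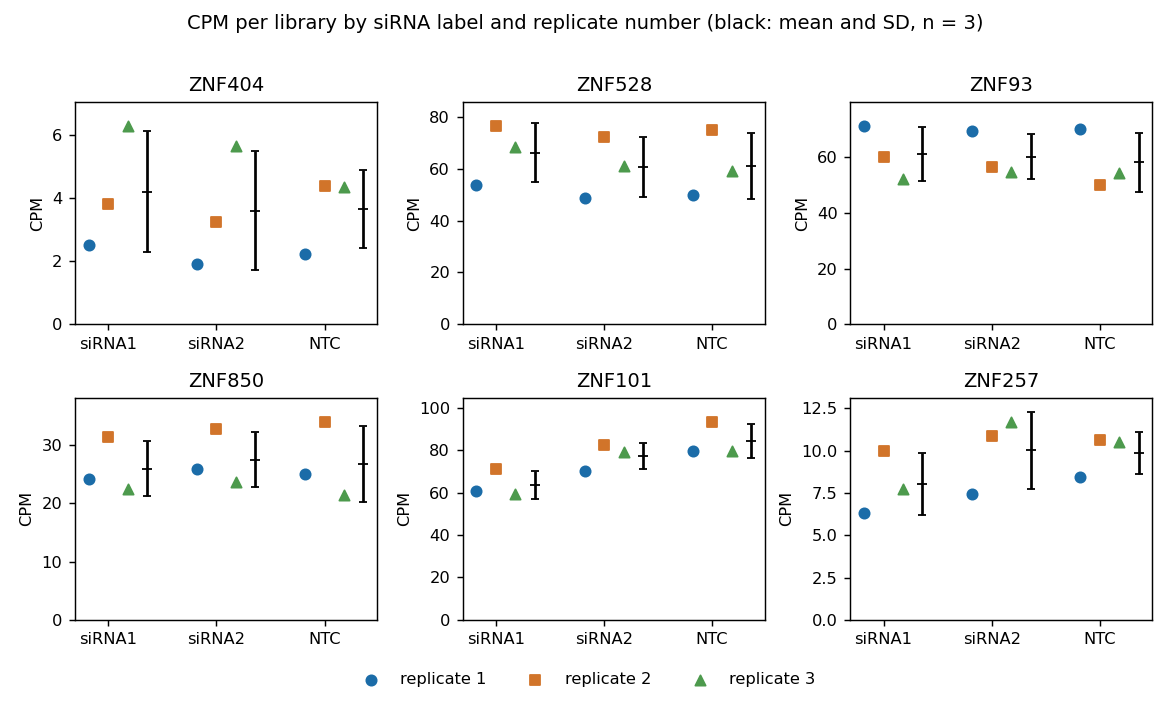
CPM of 6 ZNF genes in the 9 libraries by siRNA label (horizontal axis), with a marker for each replicate number and the mean and SD of each label in black (n = 3). ZNF404 and ZNF528 are lowest and ZNF93 is highest in the replicate 1 libraries, ZNF850 is highest in the replicate 2 libraries, and all 3 libraries labelled siRNA1 are lower in ZNF101 than those labelled NTC.

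Between the libraries labelled siRNA2 and NTC 0 of 223 genes passed, as did 0.0% of all genes in each direction. DESeq2 and the fit with the replicate block called 0 of the 223 as well, where the block called 0.0862% of all genes higher and 0.0647% lower, and 1 gene, ZNF428, had an unadjusted p under 0.05 (0.448%, against 2.11% of all genes). The median log2 fold change was 0.03. The largest changes among genes with at least 1 CPM were −0.40 for ZNF844, −0.28 for ZNF428 and −0.27 for ZNF837, and 0.30 for ZNF283, 0.24 for ZNF17 and 0.20 for ZNF235. Between the libraries labelled siRNA1 and siRNA2, again a difference between labels, 0 of 223 genes passed by edgeR without the replicate block. Of all genes 0.345% were called higher and 0.738% lower. At an unadjusted p under 0.05 the count was 8, or 3.59%, against 10.04% of all genes. DESeq2 called 1, ZNF443 (adjusted p = 0.0127), a count given without that of all genes. ZNF443 averaged 31.9 ± 1.99 CPM under the siRNA1 label and 41.5 ± 2.51 CPM under the siRNA2 label (SD, n = 3 each; log2 fold change −0.38, SE 0.09, edgeR adjusted p = 0.102). With the replicate block 9 genes passed, ZNF610 higher and ZNF121, ZNF799, ZNF443, ZNF101, ZNF708, ZNF257, ZNF569 and ZNF749 lower, where 5.29% of all genes were called higher and 5.27% lower. This comparison and the one of siRNA1 with NTC share the libraries labelled siRNA1, and the comparisons with NTC share the libraries labelled NTC.

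A sequence word found in genes that were lower under the siRNA1 label also occurs in some of these genes, and its sites in cluster 4 are shown because most of them are near copies of each other. The word GCAGTAC was the most over-represented 7-base word in the 3′ UTRs of the genes called lower between the libraries labelled siRNA1 and NTC. It occurred in 43 of 131 such UTRs (32.8%), against 3.75% of the UTRs of genes called higher and 3.88% of those of other genes. It was chosen on these libraries, so what follows is a description. Of the 232 chromosome 19 ZNF genes with an annotated 3′ UTR, tested or not, 12 held the word (5.17%). Among all tested genes with a 3′ UTR the share was 4.19%, so these shares cover unlike sets. Of the 12, 6 lie in cluster 4. Their sites, in GENCODE 29 transcripts, sense strand, 5′ to 3′, with the word in capitals, are the following.
ZNF714: tataagatGCAGTACatttttaa
ZNF708: aataaaatGCAGTACatttttaa
ZNF493: aataaaatGCAGTACattttaaa
ZNF257: aataaaatGCAGTACattttaaa
ZNF492: atgaaaatGCAGTACatgttaaa
ZNF681: ggcaccatGCAGTACaaaagctt
ZNF528: attgaacaGCAGTACctgctgtt
The ZNF493 and ZNF257 sites are identical over these bases, and the site of ZNF528 in cluster 9 is shown for contrast.

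All 5 tested cluster 4 genes with the word had a negative log2 fold change between the libraries labelled siRNA1 and NTC, between −0.30 and −0.14 with a median of −0.16. None of the 5 passed this test without the replicate block, and ZNF257 passed with it. The 23 tested cluster 4 genes without the word had a median of 0.05, and 8 of them were negative. The 6 tested genes with the word in other clusters had a median of 0.05, and 2 were negative. ZNF257 (22052452 to 22091480) had 6.31, 9.96 and 7.74 CPM in replicates 1 to 3 labelled siRNA1, against 8.46, 10.6 and 10.5 CPM in those labelled NTC. The groups overlapped, and within each replicate number the library labelled siRNA1 was lower. ZNF708 (21291160 to 21329425) had 36.3, 43.3 and 33.0 CPM under the siRNA1 label, against 44.7, 44.9 and 40.9 CPM under the NTC label, with overlap between the groups. Between the libraries labelled siRNA2 and NTC the 5 genes had log2 fold changes of 0.01 to 0.09, with a median of 0.05. The 23 without the word had a median of 0.07 there, and 4 of them were negative.

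**Figure D3:**
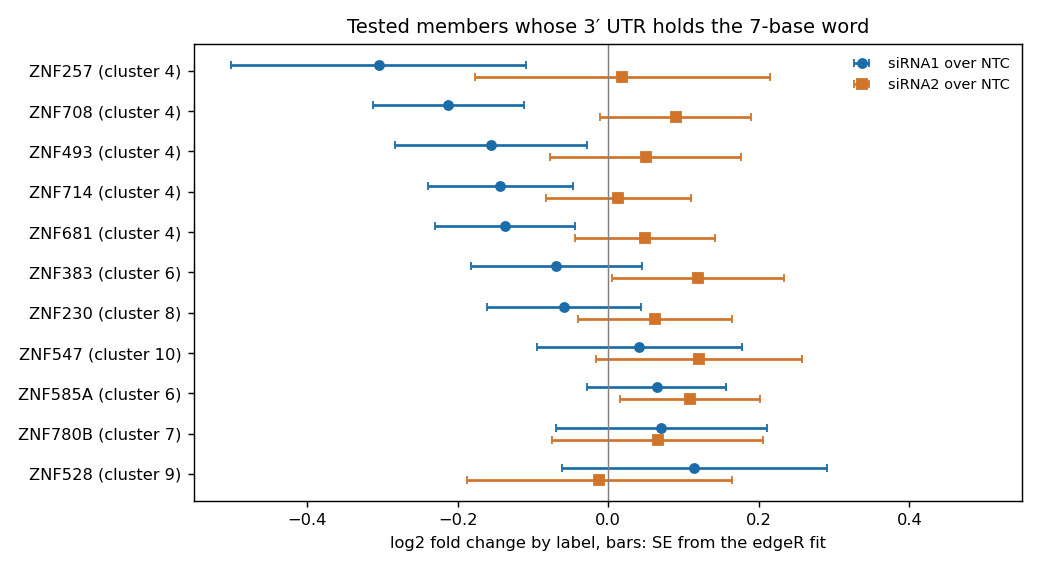
Log2 fold changes between the libraries labelled siRNA1 and NTC (circles) and siRNA2 and NTC (squares) of the 11 tested ZNF genes whose 3′ UTR holds the 7-base word, with standard errors of the edgeR fit as bars. The 5 genes of cluster 4 lie below 0 under the siRNA1 label, at −0.30 to −0.14, and just above 0 under the siRNA2 label, at 0.01 to 0.09. Most cluster 4 genes without the word, not shown, also lie above 0 under the siRNA2 label.

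About as large a share of these genes as of all genes passed between replicate numbers, but the directions were split unequally. In the comparison of the 3 replicate 1 libraries with the 6 of replicates 2 and 3, with the siRNA label in the fit, 45 of 223 genes passed. At an unadjusted p under 0.05 the count was 73, or 32.7%, against 33.4% of all genes. Of the 45 genes 39 were lower in replicate 1 and 6 higher. That is 17.5% of tested genes lower, where 10.4% of all genes were called lower, and 2.69% higher, where 10.9% were called higher. The median log2 fold change was −0.07, and that of all genes −0.01. Of the ZNF genes of other chromosomes, 22 were higher and 27 lower of 221, and of the other protein-coding genes of chromosome 19, 79 were higher and 71 lower of 763. All 3 replicate 1 libraries lay below the other 6 for 24 of the ZNF genes of chromosome 19 (10.8%), where 6.2% of all genes and 9.50% of the ZNF genes of other chromosomes did so. They lay above the other 6 for 7 (3.14%), where 6.4% of all genes and 3.17% of the ZNF genes of other chromosomes did so. The changes were small: the median fold of the 39 lower genes was 1.18, and 4 were lower by more than 1.5-fold, ZNF404, ZNF844, ZNF30 and ZNF880.

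ZNF404 in cluster 8 (43872363 to 43901385) had the largest fold change among genes with at least 1 CPM. It stood at 2.50, 1.92 and 2.22 CPM in the replicate 1 libraries labelled siRNA1, siRNA2 and NTC, against 3.81, 3.22 and 4.37 CPM in those of replicate 2 and 6.27, 5.65 and 4.33 CPM in those of replicate 3. All 3 replicate 1 libraries lay below the other 6, by 2.05-fold (log2 fold change −1.04, SE 0.12, edgeR adjusted p = 2.7e-06). Some of its reads are uncertain, since 17.6% of its exon bases lie under another gene's exons. ZNF610, ZNF880 and ZNF528 are consecutive genes of cluster 9 (52336245 to 52418412), and all 3 were lower in replicate 1. ZNF528, the most abundant of them, had 53.9, 48.8 and 49.8 CPM in replicate 1 labelled siRNA1, siRNA2 and NTC, against 76.7, 72.3 and 74.9 CPM in replicate 2 and 68.5, 61.2 and 59.1 CPM in replicate 3. Its replicate 1 libraries lay below the other 6 (log2 fold change −0.43, SE 0.06, edgeR adjusted p = 7.7e-06). ZNF880 averaged 2.92 ± 0.667 CPM in replicate 1 (SD, n = 3) and 4.48 ± 0.593 CPM in replicates 2 and 3 (SD, n = 6; log2 fold change −0.61, edgeR adjusted p = 0.000216). ZNF610 averaged 5.10 ± 0.675 CPM in replicate 1 (SD, n = 3) and 7.51 ± 1.23 CPM in replicates 2 and 3 (SD, n = 6; log2 fold change −0.55, edgeR adjusted p = 5.5e-05).

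By position the 39 lower genes came from 9 of the 10 clusters. Cluster 9 held 10 of them among 38 tested genes, cluster 6 held 7 of 26, cluster 3 held 5 of 24, cluster 10 held 5 of 56, and clusters 4 and 8 held 4 each. Of the 39, 20 stood next to another lower gene in the order of tested genes along the chromosome. Of the 42 genes higher in replicate 2 than in replicate 3, given below, 16 stood next to another such gene. Whether these counts exceed those of a random order was not tested, and neighbours can share sequence. In cluster 6 all but 3 of the 26 tested genes had a negative log2 fold change, with a median of −0.14. Other lower genes named by size were ZNF30 in cluster 5 (log2 fold change −0.61), ZNF525 in cluster 9 (−0.51), and ZNF257 in cluster 4 and ZNF781 in cluster 6 (−0.47 each). Of the 173 tested genes with the KRAB word 34 were lower and 5 higher in replicate 1, and of the 50 without it 5 were lower and 1 higher. The difference between these groups was not tested. The imprinted ZNF331 was also lower, by a log2 fold change of −0.22 (SE 0.05, edgeR adjusted p = 0.00604), a call lost without siRNA1 replicate 1 (edgeR adjusted p = 0.111). The call of ZNF781 was lost without any one of the replicate 1 libraries, with an edgeR adjusted p of at most 0.0800.

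The 6 higher genes were ZNF93 and ZNF43 in cluster 4, ZNF83 and ZNF677 in cluster 9, ZNF266 in cluster 2 and ZNF333 outside clusters. ZNF93, the repressor of LINE retrotransposons, had 71.2, 69.3 and 70.1 CPM in replicate 1 labelled siRNA1, siRNA2 and NTC, against 60.0, 56.5 and 49.9 CPM in replicate 2 and 52.0, 54.8 and 54.5 CPM in replicate 3. The replicate 1 libraries lay above the other 6 (log2 fold change 0.36, SE 0.06, edgeR adjusted p = 0.00011). ZNF677 stood at 0.185 ± 0.0405 CPM in replicate 1 (SD, n = 3) and 0.0370 ± 0.0314 CPM in replicates 2 and 3 (SD, n = 6), near the limit of detection. Of these 6 calls, that of ZNF333 was lost without siRNA1 replicate 1 (edgeR adjusted p = 0.0607), and that of ZNF43 without siRNA1 or NTC replicate 1 (at most 0.101). With 1 library left out in turn, ZNF83 lost its call in 6 cases and ZNF266 in 7, and DESeq2 did not call ZNF677. Markers of several cell types, T cells included, differed in replicate 1. Of the 10 T cell markers 3 were higher and 3 lower there (30% each, against 10.9% and 10.4% of all genes). CD5 was among the higher ones (log2 fold change 0.25), and PTCRA (−1.97) and CD1E (−0.80) were among the lower ones in replicate 1. The B cell markers CD79A and PAX5 were higher there, with log2 fold changes of 0.66 and 0.93, and MS4A1 and CD22 stayed at or near 0. These 4 B cell markers summed to 17.6 to 21.5 CPM in replicate 1, against 9.18 to 14.4 CPM in the other 6 libraries. Of the myeloid markers CD14 and ITGAM were lower in replicate 1, and the 5 summed to 0.550 to 0.741 CPM there, against 0.829 to 1.29 CPM in the other 6. The part of any of these lists in the changes of the ZNF genes was not tested. With a replicate 1 library left out the number of calls was 17 without siRNA1, 24 without siRNA2 and 23 without NTC. Shares over all genes were not set beside these counts, so a loss common to all genes cannot be told apart.

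**Figure D4:**
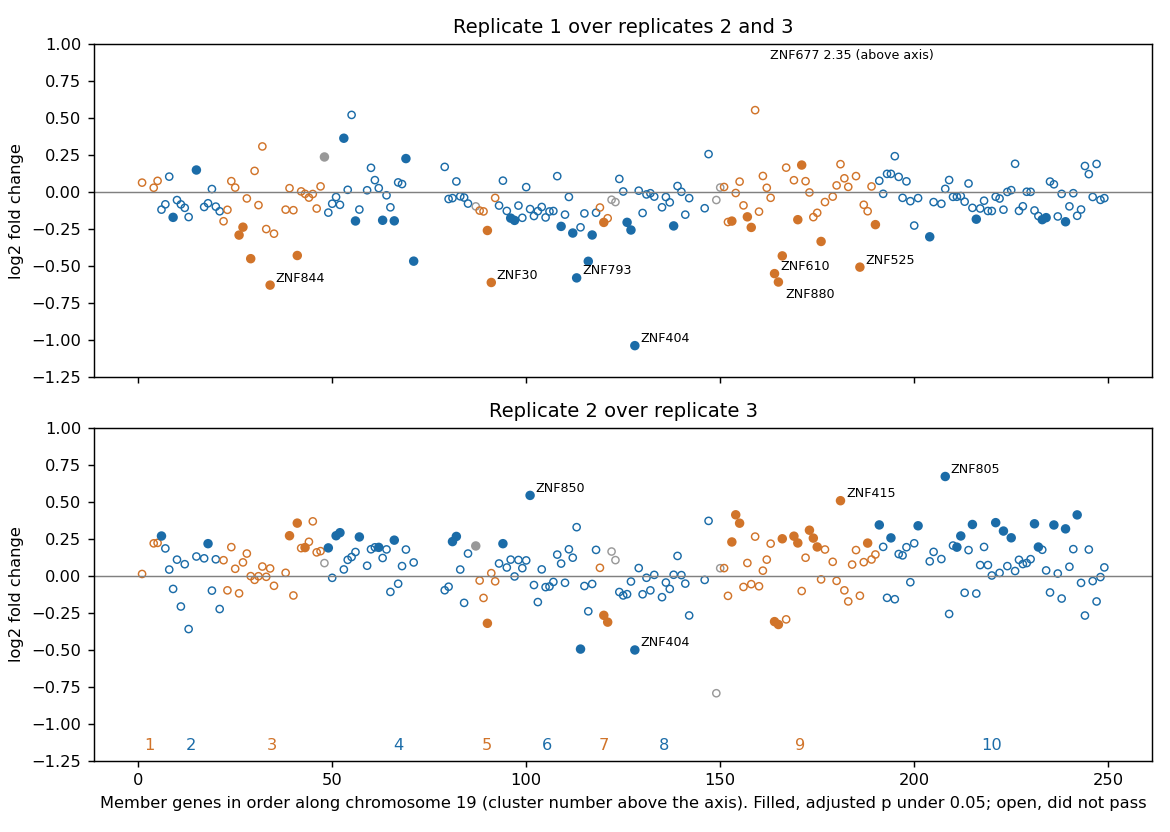
Log2 fold change of the 223 tested ZNF genes in their order along chromosome 19, in replicate 1 over replicates 2 and 3 (above) and in replicate 2 over replicate 3 (below), with cluster numbers at the bottom and colours alternating between clusters. Filled points passed at an adjusted p under 0.05: 39 of 45 lie below 0 above, and 42 of 49 lie above 0 below.

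Between the 3 libraries of replicate 2 and the 3 of replicate 3, 49 genes passed. At an unadjusted p under 0.05 the count was 82, or 36.8%, against 33.3% of all genes. Of the 49 genes 42 were higher and 7 lower in replicate 2. That is 18.8% of tested genes higher, where 9.91% of all genes were called higher, and 3.14% lower, where 10.7% were called lower. The median log2 fold change was 0.08, and that of all genes −0.01. With library size alone as the scale the split was 25 higher and 10 lower, given without the shares over all genes on that scale. Of the ZNF genes of other chromosomes 34 were higher and 13 lower, and of the other protein-coding genes of chromosome 19, 99 were higher and 76 lower. Replicate 2 lay entirely above replicate 3 for 53 of the chromosome 19 ZNF genes (23.8%), where 13.1% of all genes and 23.1% of the ZNF genes of other chromosomes did so. It lay entirely below for 13 (5.83%), where 13.3% of all genes and 9.05% of the ZNF genes of other chromosomes did so.

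ZNF850 in cluster 6 (36714383 to 36772825) had the smallest p. It had 31.3, 32.7 and 34.0 CPM in replicate 2 labelled siRNA1, siRNA2 and NTC, against 22.4, 23.7 and 21.4 CPM in replicate 3. The libraries of replicate 2 lay above all others, since replicate 1 had 24.2, 25.9 and 25.0 CPM (log2 fold change 0.54, SE 0.07, edgeR adjusted p = 1.4e-05). ZNF805 in cluster 10 was the only gene higher by more than 1.5-fold. It averaged 7.14 ± 0.464 CPM in replicate 2 and 4.47 ± 0.198 CPM in replicate 3 (SD, n = 3 each; log2 fold change 0.67, SE 0.10, edgeR adjusted p = 6.6e-05). Other higher genes named by size were ZNF415 (0.51), ZNF613 (0.41), ZNF350 (0.35), ZNF8 (0.41), ZNF416 (0.36) and ZNF442 (0.35), as log2 fold changes. ZNF350, also called ZBRK1, represses the DNA damage gene GADD45A. Of the members with a described function, ZNF146, ZNF91 and ZNF675 were higher as well, with log2 fold changes of 0.22, 0.23 and 0.26. Their calls, and those of ZNF415 and ZNF442, depended on single libraries. ZNF146 and ZNF91 lost theirs without siRNA1 replicate 2 or 3, siRNA2 replicate 2 or NTC replicate 3, with log2 fold changes down to 0.15 and 0.16 and edgeR adjusted p up to 0.266 and 0.206. ZNF675 lost its call without siRNA1 replicate 2 or 3 (edgeR adjusted p up to 0.271). ZNF415 lost its call without siRNA1 or siRNA2 replicate 2 or 3 (up to 0.142), and ZNF442 without siRNA1 or siRNA2 replicate 2 or NTC replicate 3 (up to 0.0978).

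The 42 higher genes were mostly in 3 clusters, with 15 of 56 tested genes in cluster 10, 11 of 38 in cluster 9 and 8 of 28 in cluster 4. With the KRAB word 29 of 173 were higher and 7 lower, and without it 13 of 50 were higher and 0 lower, a difference that was not tested. Of the 10 T cell markers 2 were higher in replicate 2 and 3 lower (20% and 30%, against 9.91% and 10.7% of all genes). CD1A (log2 fold change −0.93) and CD1B (−0.70) were among the lower ones. Of the tested B cell markers CD79A was higher in replicate 2 (log2 fold change 0.24, edgeR adjusted p = 0.0475), and PAX5 had −0.34 and did not pass. Of the 4 tested myeloid markers CD14 was higher (1.06, edgeR adjusted p = 0.0140), at 0.356 CPM in replicate 2 and 0.171 CPM in replicate 3 on average, and the other 3 did not pass. The part of these markers in the changes of the ZNF genes was not tested. The 7 lower genes were ZNF404, ZNF540, ZNF599, ZNF610, ZNF880 and the neighbours ZNF780A and ZNF780B. These neighbours form cluster 7 with 1 other gene. ZNF780A averaged 22.5 ± 1.24 CPM in replicate 2 and 28.0 ± 2.31 CPM in replicate 3 (SD, n = 3 each; log2 fold change −0.31, SE 0.07, edgeR adjusted p = 0.00463), a call lost without siRNA2 replicate 2 (edgeR adjusted p = 0.0702). With 1 library left out in turn, ZNF540 kept its call in every case, and ZNF404, ZNF599, ZNF610, ZNF880 and ZNF780B each lost theirs in 3 or 4. Across both comparisons of replicate numbers 83 genes passed at least 1 and 11 passed both. Of the 11, ZNF404, ZNF599, ZNF610, ZNF780B and ZNF880 were lower in both. ZNF442, ZNF493, ZNF528, ZNF649, ZNF701 and ZNF329 were lower in replicate 1 and higher in replicate 2. None of the 11 kept both calls with each of the 9 libraries left out in turn. The replicate 1 calls of ZNF404, ZNF610, ZNF880, ZNF442 and ZNF528 held in every case, and those of the other 6 were lost in 4 to 7. The calls between replicates 2 and 3 were lost in 1 to 6 cases for all but ZNF329. The call count fell to 17 without siRNA1 replicate 2, and to 25, 26 and 25 without siRNA1 replicate 3, siRNA2 replicate 2 and NTC replicate 3. Here too shares over all genes were not set beside the counts.

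Summed over all 249 genes the level was 5497 to 5695 CPM in the replicate 1 libraries, 5994 to 6049.9 CPM in those of replicate 2 and 5410.2 to 5877 CPM in those of replicate 3. On this scale replicate 2 did not overlap with either of the other numbers. By label the sum averaged 5642 ± 328 CPM for siRNA1, 5838 ± 234 CPM for siRNA2 and 5737 ± 239.8 CPM for NTC (SD, n = 3 each), and these ranges overlapped. The sum came to 0.544% to 0.607% of all gene counts. On that scale, without TMM factors, the separation was lost: replicate 2 held 0.590% to 0.601%, and the replicate 3 library labelled siRNA2 lay above it at 0.607%.

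Silencing partners of KRAB zinc finger proteins were followed as a list of 38 genes, all of which were tested. The list also holds general DNA methylation and chromatin genes such as DNMT1, UHRF1 and HELLS. TRIM28, the direct partner of the KRAB domain, averaged 511 CPM and SETDB1 67.3 CPM over the 9 libraries. Between the libraries labelled siRNA1 and NTC 0 of the 38 were higher and 2 lower (5.26%, against 0.814% of all genes), with a list median of −0.04 beside 0.01 for all genes. The 2 were DNMT1 and UHRF1, and the other 36 did not pass, TRIM28 (log2 fold change −0.14) and SETDB1 (0.01) among them. DNMT1, the maintenance DNA methyltransferase, stood at 535, 449.6 and 537 CPM under the siRNA1 label, against 786, 681 and 786 CPM under the NTC label, without overlap (log2 fold change −0.57, SE 0.10, edgeR adjusted p = 0.0179). UHRF1, which guides DNMT1 to replicated DNA, averaged 486 ± 25.1 CPM under the siRNA1 label and 686 ± 68.4 CPM under the NTC label (SD, n = 3 each; log2 fold change −0.50, edgeR adjusted p = 0.0160). With the replicate block 2 of the 38 were higher and 7 lower, where it called 5.48% of all genes higher and 5.93% lower. DNMT3B was among the higher ones with the block (log2 fold change 0.49, edgeR adjusted p = 4.8e-05), and did not pass without it (edgeR adjusted p = 0.0779). Between the libraries labelled siRNA2 and NTC none of the 38 passed by edgeR, 2 of them with an unadjusted p under 0.05. Between siRNA1 and siRNA2 only DNMT1 passed, as the lower one under siRNA1 (log2 fold change −0.50, edgeR adjusted p = 0.0393). That is 2.63% of the list lower, against 0.738% of all genes. With the block 1 of the 38 was higher and 5 lower in that comparison, where 5.29% of all genes were called higher and 5.27% lower. In replicate 1 against replicates 2 and 3, 4 were higher (10.5%, against 10.9% of all genes) and 3 lower (7.89%, against 10.4%), shares near those of all genes. HELLS, a chromatin remodeller, was among the higher ones (log2 fold change 0.50, SE 0.06), and ATF7IP, a partner protein of SETDB1, among the lower ones (−0.23, SE 0.06). In replicate 2 against replicate 3, 5 were higher (13.2%, against 9.91% of all genes) and 2 lower (5.26%, against 10.7%). The higher ones included TRIM28 (0.19, SE 0.07, edgeR adjusted p = 0.0432), and HELLS (−0.53, SE 0.07) and HDAC1 (−0.22, SE 0.06) were lower, as log2 fold changes.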

How the data were processed

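The deposited tables, 1 per library, hold unnormalized whole-number read counts per gene, as the deposited values show. Per the submitters' processing notes the build was GRCh38. The aligner, counting settings and annotation were not given in the sources used here. Per the labels' protocols the TruSeq mRNA kit does not mark strand, so the unstranded count was used, and reads of overlapping or antisense genes cannot be told apart. The forward share of the strand counts was 50.2% to 50.6%, 75.5% to 77.6% of reads fell in genes, and the summary lines were left out. Of the 58096 identifiers 57492 matched GENCODE 29. No replicates repeated each other (chi-square per degree of freedom 36.0 to 60.7).

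The count test was edgeR's quasi-likelihood test (edgeR 4.0.16, R 4.3.3) in 1 fit of the 9 libraries. TMM factors lay between 0.975 and 1.04. The filter filterByExpr (minimum count 10, minimum total 15) kept 18554 genes, and p-values were adjusted over all of these by Benjamini-Hochberg, with a threshold of 0.05. The siRNA labels were compared without a block, and replicate numbers in a fit with label and number. Standard errors are the size of the log2 fold change divided by the root of the F statistic. Simulated counts were used to check only the comparison of siRNA1 with NTC without a block. They held no shift between replicate numbers, so they say nothing about paired libraries or the comparisons of replicate numbers. The numbers pair the libraries: deviations from group means correlated at 0.497 to 0.740 for the 9 same-number pairs over all genes tested and at 0.377 to 0.717 over the ZNF genes, against at most 0.0303 for other pairs over all genes. Depth makes counting error small above a few CPM. DESeq2 1.42.0, other scalings and filters, the block and leaving out libraries were alternatives. Motifs were searched in translated GENCODE coding sequences, and 3′ UTRs in the GENCODE transcript with the longest coding sequence.

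Genes were named by a rule: those that passed, limited to the 8 largest folds per comparison and direction with a mean of at least 1 CPM; where none passed, the 3 largest each way; the 6 most abundant per kb; the most abundant of each cluster; and those with a described role. Genes called with the block or holding the word were named after their values were seen. The members and lists were chosen with earlier results of these data known. One marker gene of the lists is not reported here.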

Additional observations from a re-analysis of the deposited data

How the results depend on the processing

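Of the 223 tested ZNF genes, 0 passed in the 3 comparisons of siRNA labels under RLE factors, library size alone, a CPM of 1 in 3 libraries, only the groups compared, without the 3 replicate 1 libraries and without any 1 library. For siRNA1 vs NTC the count was 1 with no filter beyond 1 count and 2 by DESeq2, and between siRNA1 and siRNA2 it was 1 by DESeq2. With the replicate number as a block, which the pairing of the libraries warrants, it was 7 and 9; it stayed 0 between siRNA2 and NTC. The cause of these differences was not tested. Over all genes, siRNA1 vs NTC gave 2117 calls with the block and 553 by DESeq2, in place of 238. Between replicate 1 and replicates 2 and 3 the count of 45 lay between 17 and 49 with 1 library left out, and between replicates 2 and 3 the count of 49 lay between 17 and 59. Other scalings, filters and DESeq2 gave 37 to 51 and 35 to 52. Shares over all genes under these settings are not set beside these counts. Among the genes with little overlap or shared sequence, an alternative chosen after seeing the data, 36 of 158 passed in the first and 38 in the second. In the first 3.16% were higher and 19.6% lower, where 10.9% and 10.4% of all genes were. In the second 20.3% were higher and 3.80% lower, where 9.91% and 10.7% of all genes were. Of 51 calls of named genes 18 held under every alternative, 33 were lost under at least 1 and 0 reversed. Overlap and shared sequence limit 65 of the tested genes, and depth limits those under about 1 CPM.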
